A study of Mus musculus with 2 samples.

Results

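The 39 cardiac endothelial genes described here are receptors, ligands, junction proteins, carriers, surface antigens and transcription factors that mark the vessel lining of the heart. They were matched by gene symbol, from a list chosen with earlier results of these data known. All 39 were found among the 55536 annotated genes of the deposited tables. The RNA came from heart tissue of male B6CASTF1/J mice, the first-generation cross of C57BL/6J and CAST/EiJ, at 18 to 20 months of age. There were 2 libraries, biological replicates 2 and 1, both of this 1 group, so the data hold no comparison between ages, sexes, strains or treatments. The input to each library was 300 ng, to which ERCC spike-ins (synthetic control transcripts) were added. In the labels the libraries share 1 donor identifier and have separate sample identifiers. Whether they came from 1 animal or 2 is not clear from these labels. The spread between the libraries may therefore be partly technical, which was not tested. Replicate 2 had 37447840 expected counts (reads assigned by a model, which need not be whole) and replicate 1 had 39053830, of which the 39 genes took 79302 and 87656.

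Endothelial cells line every vessel of the heart, and the dense capillary bed between cardiomyocytes makes them one of its most frequent cell types. Vascular endothelial growth factor (VEGF) receptors and the Tie receptors carry survival and growth signals, Notch1 and Dll4 take part in arterial identity, and Prox1 is the master regulator of lymphatic fate. Cardiac capillaries are specialised for the uptake of fatty acids, in which the lipid carrier Fabp4 and the transcription factors Meox2 and Tcf15 take part. ETS factors such as Erg and Ets1, together with forkhead and SOX factors, are the best known regulators of endothelial genes.

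Promoter sequences are shown for the genes that bear on those regulators or that differed most between the libraries. RefSeq promoter windows of build GRCm38.p6, which run from 250 bases before to 50 bases after an annotated start, were matched for 21 of the 39 genes in 27 windows. The remaining 18 were Pecam1, Cdh5, Esam, Vwf, Fabp4, Nos3, Sox17, Sox18, Ets1, Ly6a, Plvap, Lyve1, Tcf15, Aplnr, Ptprb, S1pr1, Mmrn2 and Icam2. The windows were searched on both strands for AACAGGAA, a composite of the kind bound jointly by forkhead and ETS factors, whose reverse complement is TTCCTGTT. It occurred in 7.41% of the 27 windows, those of Egfl7 and Emcn, and in 2.65% of all 32851 windows in the table. These windows are printed 5′ to 3′ on the strand of the gene with the match in capitals. In Egfl7, chr2:26580833-26581132 on the plus strand, the match began 92 bases before the start. In Emcn, chr3:137340828-137341127 on the plus strand, the reverse complement began 173 bases before it.
Egfl7 promoter: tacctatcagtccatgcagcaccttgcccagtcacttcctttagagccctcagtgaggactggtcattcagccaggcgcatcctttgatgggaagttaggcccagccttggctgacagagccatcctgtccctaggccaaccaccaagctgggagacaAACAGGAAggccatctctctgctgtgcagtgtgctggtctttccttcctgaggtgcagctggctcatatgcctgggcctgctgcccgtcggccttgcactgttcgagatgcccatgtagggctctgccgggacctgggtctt
Emcn promoter: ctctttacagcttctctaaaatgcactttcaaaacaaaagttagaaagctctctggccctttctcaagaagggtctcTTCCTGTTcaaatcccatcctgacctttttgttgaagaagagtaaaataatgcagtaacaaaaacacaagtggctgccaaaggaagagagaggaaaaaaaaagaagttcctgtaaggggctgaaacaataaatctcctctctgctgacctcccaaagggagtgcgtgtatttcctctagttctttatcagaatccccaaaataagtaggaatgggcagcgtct

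The ETS sequence AGGAAG, read as CTTCCT on the other strand, can overlap AACAGGAA by its first 5 letters, and does so in both windows above. It occurred in 44.4% of the 27 windows and in 35.4% of all windows. Rgcc, the gene that differed most between the libraries, held it at 244 bases before the start in chr14:79301586-79301885 on the minus strand. The other ETS sequence, CCGGAA, occurred in 7.41% of the 27 windows, those of Kdr and Car4, and in 14.9% of all windows. TGGGAA, the sequence recognised by the Notch partner Rbpj, occurred in 29.6% and 25.6%. Meox2, which had the highest ratio between libraries among the transcription factors, held it at 144 bases before the start in chr12:37108290-37108589 on the plus strand. The SOX sequence ACAATG occurred in 3.7% of the 27 windows, the window of Erg, and in 12.6% of all windows. A match describes the letters of these windows and is not evidence of binding.
Rgcc promoter: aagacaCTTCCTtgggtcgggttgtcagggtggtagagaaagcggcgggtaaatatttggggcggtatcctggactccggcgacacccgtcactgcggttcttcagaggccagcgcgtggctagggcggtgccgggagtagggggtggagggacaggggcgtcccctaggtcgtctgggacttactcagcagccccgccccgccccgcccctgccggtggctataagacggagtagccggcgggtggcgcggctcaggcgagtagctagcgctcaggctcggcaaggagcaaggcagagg
Meox2 promoter: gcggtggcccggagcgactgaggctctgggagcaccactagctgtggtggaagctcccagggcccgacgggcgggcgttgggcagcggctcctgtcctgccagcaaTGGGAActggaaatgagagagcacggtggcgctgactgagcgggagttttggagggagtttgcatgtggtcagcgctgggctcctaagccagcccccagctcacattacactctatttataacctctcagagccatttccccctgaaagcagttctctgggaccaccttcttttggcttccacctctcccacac

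All 39 genes were detected, here meaning 1 TPM (a length-scaled abundance that sums to the same total in each library) or more in replicates 2 and 1. That level was reached by 49.4% of the 22015 protein-coding genes of the nuclear genome. The median of the 39 genes was 14.2 TPM in replicate 2 and 15.4 TPM in replicate 1, a mean of 14.8 ± 0.884 (SD, n = 2). Among the nuclear protein-coding genes their median lay at percentile 83.7 in replicate 2 and 83.3 in replicate 1, and the single genes lay between percentiles 63.1 and 98.8 and between 60.7 and 98.8. Together they held 0.286% of the nuclear protein-coding TPM in replicate 2 and 0.284% in replicate 1 (mean 0.285% ± 0.00127, SD, n = 2). In bulk tissue, fewer cells of a type and less RNA per cell cannot be told apart, so these shares are not shares of cells.

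The levels were dominated by Fabp4, Aqp1, Ly6c1 and Ly6a, which held 45.5% of the summed TPM of the 39 genes in replicate 2 and 47.7% in replicate 1. These 4 genes averaged over 50 TPM, 21 lay between 10 and 50, and 14 lay under 10, of which 4 were under 5. The 4 lowest were Flt4, Sox17, Meox2 and Clec14a. The order of close neighbours was not fixed: of the 38 neighbouring pairs in the order of mean TPM, 17 stood in that order in both libraries and 21 did not. The spread of the 39 genes was wide enough that Fabp4 stood above all the others, and Clec14a under 5 TPM, in both libraries.

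**Figure D1:**
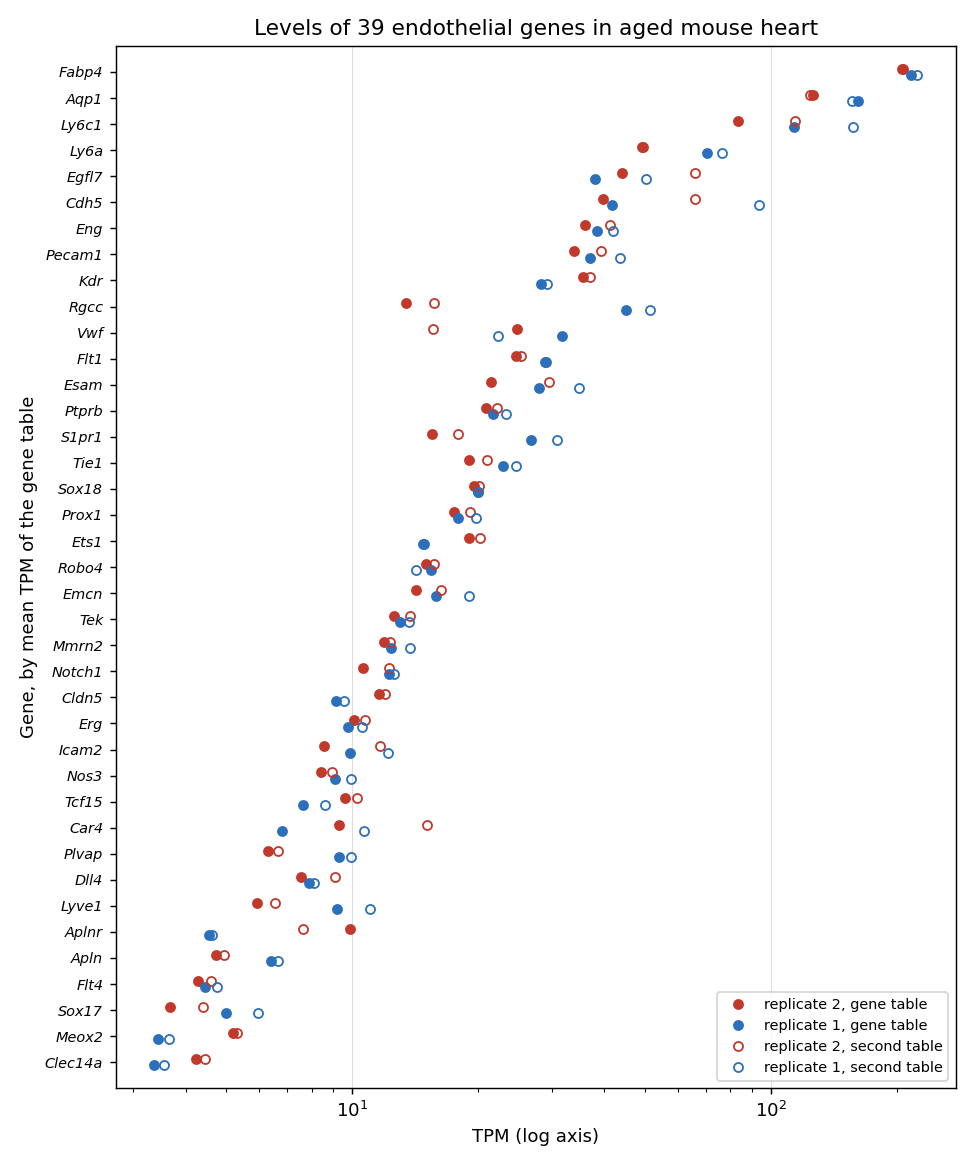
TPM of each of the 39 genes on a log axis, with genes ordered by mean TPM; filled points are the gene table and open points the second transcript table, in red for replicate 2 and blue for replicate 1. Most genes lie close together in both libraries, Rgcc is far apart at 13.5 TPM in replicate 2 and 45.1 TPM in replicate 1, and the open points of Cdh5 lie to the right of the filled ones.

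Differences between the libraries were measured as the log2 ratio of replicate 2 over replicate 1 from expected counts scaled by TMM (trimmed mean of M-values). TPM values and their sums are not scaled in this way. A gene can therefore have a lower TPM in replicate 2 and a ratio above 0. That was so for Fabp4, Cdh5, Eng, Pecam1, Ptprb, Sox18, Prox1, Robo4, Emcn, Tek, Mmrn2, Nos3, Dll4 and Flt4. They were most of the genes, among the 39, that had a ratio above 0. Summed TPM of a list should be read beside its median ratio for the same reason. With 1 library on each side there was no test, and the intervals given are 95% exact Clopper-Pearson intervals that cover counting error only. The median ratio of the 39 genes was 0.05, with 24 above 0 and 15 below, beside a median of -0.02 over the 12189 genes that averaged 1 TPM or more. Meox2 and Aplnr were past 1.5-fold higher in replicate 2, as were 2.17% of the 12189 genes. Lyve1, Rgcc and S1pr1 were past 1.5-fold lower, as were 2.88%. Past 2-fold, 0 of the 39 were higher, beside 0.533% of all genes, and Rgcc was lower, beside 1.13%. The 2 and 3 genes make 5.13% and 7.69% of the 39, counts too small to read beyond the genes themselves. With spike-in scaling 4 genes were past 1.5-fold higher and Rgcc alone lower, because Ets1 and Car4 passed the threshold and S1pr1 and Lyve1, at -0.56 and -0.52, did not. With total-count scaling 15 of the 39 lay above 0 and 24 below. These scalings put the median of all genes at 0.08 and -0.10, so the sign of a ratio within about 0.1 of 0, and counts above and below 0 that rest on such genes, depend on the scaling.

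The median absolute log2 ratio of the 39 genes was 0.24, beside 0.11 over the 8408 genes within their range of TPM. The central 95% of those genes ran from -0.50 to 0.37, which leaves 2.51% of them above and 2.51% below. Among the 39, 8 (20.5%) lay above it, namely Kdr, Cldn5, Ets1, Car4, Tcf15, Meox2, Aplnr and Clec14a. Lyve1, Rgcc and S1pr1 (7.69% of the 39) lay below. The counting interval lay above 0 for 14 genes, 35.9% of the 39, beside 14.5% of all genes. It lay below 0 for 13, or 33.3%, beside 20.6%. With spike-in scaling these counts were 22 of the 39, beside 30.0% of all genes, and 10 of the 39, beside 10.3%. With total counts they were 10 of the 39, beside 7.44%, and 15 of the 39, beside 34.2%. The interval narrows with depth, and the deepest genes were therefore called at small ratios, such as Aqp1 at -0.24 (-0.27 to -0.20).

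**Figure D2:**
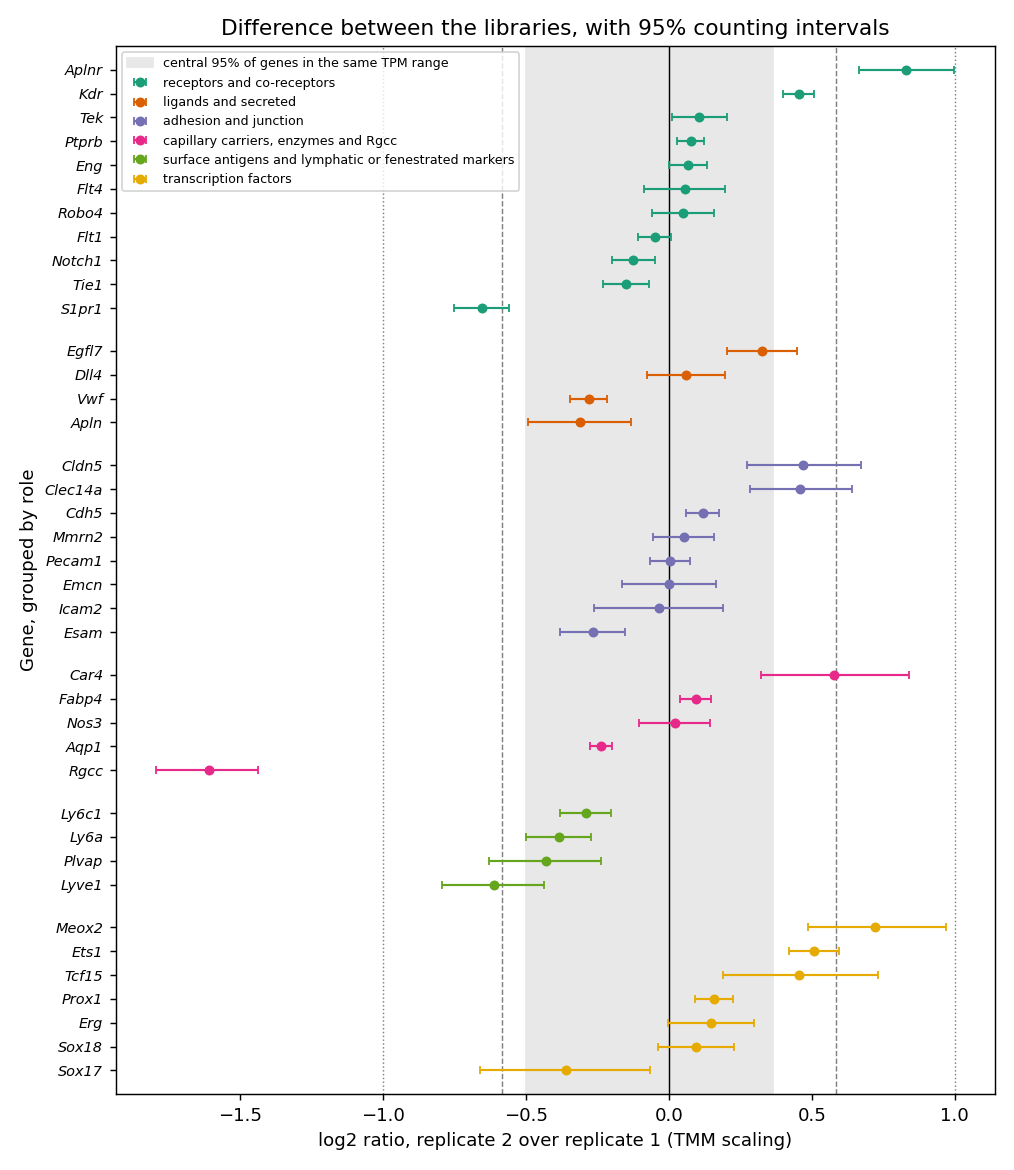
Log2 ratio of replicate 2 over replicate 1 for each of the 39 genes, grouped by role, with 95% counting intervals as bars; dashed lines mark 1.5-fold, dotted lines 2-fold, and the grey band the central 95% of genes in the same range of TPM, -0.50 to 0.37. Most genes lie within the band, and Rgcc lies past 2-fold lower at -1.61. The 4 surface antigens and lymphatic or fenestrated markers, Ly6c1, Ly6a, Plvap and Lyve1, all lie below 0. The lymphatic genes Flt4 and Prox1, shown under other roles, lie above 0.

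The 11 receptors and co-receptors summed to 204 TPM in replicate 2 and 216 TPM in replicate 1, with a median ratio of 0.06. Kdr, the main signalling receptor for VEGF-A, had 35.5 TPM in replicate 2 and 28.2 TPM in replicate 1. Flt1, which binds VEGF-A, VEGF-B and placental growth factor and can act as a decoy, had 24.6 and 29.0 TPM. The TPM of Kdr was thus 1.44 times that of Flt1 in replicate 2 and 0.972 times in replicate 1, and their order in the gene table differed between the libraries. In the second table Kdr was the higher in both, at 37.0 against 25.3 TPM for Flt1 in replicate 2 and 29.2 against 28.8 TPM in replicate 1. The ratio between libraries was 0.45 (0.40 to 0.51) for Kdr and -0.05 (-0.11 to 0.01) for Flt1. Flt4, the receptor for VEGF-C and VEGF-D on lymphatic vessels, was low at 4.27 and 4.44 TPM.

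Tek, the angiopoietin receptor, had 12.6 TPM in replicate 2 and 13.0 TPM in replicate 1. Tie1, the orphan receptor that pairs with it, was the higher of the pair in both libraries, at 19.0 and 22.9 TPM. Ptprb, the phosphatase that dampens Tek, had 20.9 and 21.7 TPM. Eng, or endoglin, a co-receptor for BMP9 and BMP10, had 36.0 and 38.3 TPM. Ratios between libraries for these 4 genes lay between -0.15 for Tie1 and 0.11 for Tek, and all lay inside the central 95% of genes of like level. Robo4, a receptor that stabilises the vessel barrier, had 15.0 and 15.4 TPM, and Notch1 had 10.6 and 12.3 TPM.

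S1pr1, the sphingosine 1-phosphate receptor that keeps junctions tight, and Aplnr, the apelin receptor, differed between the libraries in opposite directions. S1pr1 had 15.5 TPM in replicate 2 and 26.7 TPM in replicate 1, from 1400 and 2426 counts, a ratio of -0.66 (-0.75 to -0.56). Aplnr had 9.86 TPM in replicate 2 and 4.55 TPM in replicate 1, from 767 and 474 counts, a ratio of 0.83 (0.66 to 1.00). The deposited credibility bounds of the Aplnr TPM, whose level is not stated, ran from 8.18 to 11.5 in replicate 2 and from 3.97 to 5.59 in replicate 1 and did not overlap. In replicate 2 the short transcript Aplnr-202 made 31.4% of this TPM. The second table gave Aplnr 7.61 TPM there, under the lower bound. Apln, the ligand of Aplnr, went the other way, with 4.72 TPM in replicate 2 and 6.40 TPM in replicate 1 and a ratio of -0.31 (-0.49 to -0.13). Aplnr was 2.09 times Apln in replicate 2 and 0.711 times in replicate 1. In the second table Aplnr and Apln had 7.61 and 4.93 TPM in replicate 2, and 4.61 and 6.63 TPM in replicate 1. S1pr1 lies on the minus strand at chr3:115710433-115715072 and Aplnr on the plus strand at chr2:85136225-85139923, in mm10 coordinates of the GENCODE M21 annotation.

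The other ligands and secreted proteins were Egfl7, Vwf and Dll4. Egfl7, a secreted matrix protein of vessels, had 44.1 TPM in replicate 2 and 38.0 TPM in replicate 1, a ratio of 0.33 (0.21 to 0.45). Its gene is the host of the endothelial microRNA miR-126a, whose mature 3p sequence lies at chr2:26591402-26591423 on the plus strand and is shown with its seed, bases 2 to 8, in capitals. The microRNA entry itself had 0 counts in both libraries, with an annotated length of 73 bases and an effective length of 0, so these libraries do not measure it.
mmu-miR-126a-3p: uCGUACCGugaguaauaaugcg

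Vwf, the clotting factor carrier stored in endothelial granules and highest in veins and large vessels, had 24.7 TPM in replicate 2 and 31.6 TPM in replicate 1, a ratio of -0.28 (-0.35 to -0.22). Platelet precursors make Vwf too, and the platelet genes Pf4 and Ppbp were also lower, at 13.2 and 2.85 TPM in replicate 2 against 17.8 and 4.31 TPM in replicate 1. Of the 5 platelet genes 3 passed the level filter, and all 3 lay below 0 with a median of -0.42. Gp9 and Gp1ba were under 1 TPM in both libraries, the list summed to 17.0 TPM in replicate 2 and 24.4 TPM in replicate 1, and its part in the level of Vwf was not tested. Dll4, the arterial Notch ligand, had 7.54 and 7.90 TPM.

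The 8 adhesion and junction genes summed to 145 TPM in replicate 2 and 157 TPM in replicate 1, with a median ratio of 0.03, 6 above 0 and 2 below. Cdh5, the VE-cadherin of endothelial adherens junctions, had 39.7 TPM in replicate 2 and 41.7 TPM in replicate 1. Pecam1, the general endothelial antigen CD31, had 33.9 and 36.9 TPM and a ratio of 0.00 (-0.06 to 0.07). Esam, a tight junction adhesion molecule, had 21.4 and 28.0 TPM and a ratio of -0.27 (-0.38 to -0.15). The general endothelial markers Cdh5 and Pecam1 thus stood within 0.12 of an even ratio on the log2 scale, and Esam was lower in replicate 2.

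Emcn, the sialomucin endomucin of veins and capillaries, had 14.2 TPM in replicate 2 and 15.8 TPM in replicate 1. Mmrn2, a matrix protein that binds Clec14a, had 11.9 and 12.4 TPM. Icam2, an adhesion molecule present on resting endothelium, had 8.54 and 9.87 TPM. All 3 had counting intervals that included 0. Cldn5, the main endothelial claudin, had 11.6 TPM in replicate 2 and 9.13 TPM in replicate 1, a ratio of 0.47 (0.27 to 0.67). Clec14a, a C-type lectin of endothelium, had 4.23 and 3.36 TPM, a ratio of 0.46 (0.28 to 0.64), in the same direction as Cldn5.

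Among the capillary genes, Fabp4 had 207 TPM in replicate 2 and 216 TPM in replicate 1, and a ratio of 0.09 (0.04 to 0.15) from TMM-scaled counts. Adipocytes also express Fabp4. Of the 9 adipocyte genes 8 passed the level filter, 6 of them past 1.5-fold lower and 1 past 1.5-fold higher, with a median of -1.78. Their summed level was 59.9 TPM in replicate 2 and 106 TPM in replicate 1. Adipoq, the adipocyte hormone adiponectin, had 1.15 TPM in replicate 2 and 5.98 TPM in replicate 1, and Lep was under 1 TPM in both. Plin4, a lipid droplet protein and the most abundant gene of the list, had 45.9 TPM in replicate 2 and 47.7 TPM in replicate 1, a ratio of 0.07 (0.03 to 0.12). The part of adipocytes in the level of Fabp4 was not tested.

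Aqp1, the water channel of continuous endothelium and of red cells, had 126 TPM in replicate 2 and 162 TPM in replicate 1, from 9752 and 12631 counts. The erythroid genes had a median ratio of -0.54, with 5 of 5 tested below 0, and summed to 7045 TPM in replicate 2 and 10875 TPM in replicate 1. Slc4a1, the anion exchanger of red cell membranes, was under 1 TPM in both libraries. Their part in the level of Aqp1 was not tested. Car4, the membrane carbonic anhydrase of capillaries, had 9.27 and 6.79 TPM, a ratio of 0.58 (0.32 to 0.84), just inside 1.5-fold. Nos3, the endothelial nitric oxide synthase, had 8.44 and 9.09 TPM and a ratio of 0.02 (-0.10 to 0.14).

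Rgcc, an intracellular regulator of the cell cycle that is enriched in cardiac capillaries, was the most different of the 39 genes. It had 13.5 TPM in replicate 2 and 45.1 TPM in replicate 1, from 338 and 1139 counts, a ratio of -1.61 (-1.80 to -1.44). Rgcc lies on the minus strand at chr14:79288756-79301645 and has 1 annotated transcript, so no choice of isoform enters its value. Of the 12 other capillary markers 9 lay above 0 and 3 below, with a median of 0.18 (0.09 with Rgcc), a split chosen after the values were seen. The 3 below 0 were Aqp1, Ly6c1 and Timp4, an inhibitor of metalloproteinases, at -0.24, -0.29 and -0.18. Cd36, the fatty acid transporter and the most abundant of the 13, had 782 TPM in replicate 2 and 682 TPM in replicate 1. Gpihbp1, which anchors lipoprotein lipase on capillaries, had 41.3 and 43.3 TPM.

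The 4 surface antigens and lymphatic or fenestrated markers all lay below 0, with a median ratio of -0.41, and summed to 145 TPM in replicate 2 and 203 TPM in replicate 1. Of these 4 only Lyve1 is in the lymphatic list. Flt4 and Prox1, also lymphatic genes, were grouped with the receptors and the transcription factors and lay above 0. Ly6c1 and Ly6a, lymphocyte antigen 6 proteins carried by mouse endothelium, had 83.5 and 49.4 TPM in replicate 2 against 114 and 70.2 TPM in replicate 1. Their proportion was alike, with Ly6c1 at 1.69 times Ly6a in replicate 2 and 1.62 times in replicate 1. Plvap, the diaphragm protein of fenestrated endothelium and of endocardium, had 6.29 TPM in replicate 2 and 9.27 TPM in replicate 1, a ratio of -0.43 (-0.63 to -0.24). Plvap is itself among the 8 endocardial markers, so their values are not independent of it. Of the 8, 6 including Plvap passed the level filter, and all 6 lay below 0 with TMM, although Nfatc1 did so by less than 0.01. The counting intervals of Nfatc1, Cytl1 and Foxc1 included 0. Nrg1 and Hapln1, endocardial markers under 1 TPM in both libraries, did not pass the filter and lay above 0, at 0.88 and 0.40. The counting interval of Nrg1, from 72 counts in replicate 2 and 42 in replicate 1, lay above 0. That of Hapln1 included 0. The summed level of the 8 endocardial markers, Plvap included, was 31.2 TPM in replicate 2 and 39.4 TPM in replicate 1. The 6 atrial cardiomyocyte genes also lay below 0, with a median of -0.57 and summed levels of 824 TPM in replicate 2 and 1390 TPM in replicate 1; their part in these results was not tested.

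Lyve1, the hyaluronan receptor of lymphatic endothelium and of a class of resident macrophages, had 5.91 TPM in replicate 2 and 9.17 TPM in replicate 1, from 412 and 693 counts. Its ratio was -0.61 (-0.79 to -0.44), and the gene lies on the minus strand at chr7:110850607-110863239. The lymphatic genes Flt4 and Prox1 had ratios of 0.06 (-0.09 to 0.20) and 0.16 (0.09 to 0.23). Pdpn and Mmrn1, lymphatic markers outside the 39, had 2.01 and 2.09 TPM in replicate 2 and 1.83 and 2.46 TPM in replicate 1. The macrophage genes had a median ratio of -0.28, with 2 of 9 above 0 and 7 below, and summed to 115 TPM in replicate 2 and 158 TPM in replicate 1. Lyz2, a lysozyme and the most abundant of them, had 43.9 TPM in replicate 2 and 58.3 TPM in replicate 1, while Fcgr1 was under 1 TPM in both. The part of macrophages in the level of Lyve1 was not tested.

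The 7 transcription factors summed to 84.6 TPM in replicate 2 and 78.6 TPM in replicate 1, with 6 above 0, Sox17 below, and a median ratio of 0.16. Sox18, a SOX factor of vascular and lymphatic development, had 19.6 TPM in replicate 2 and 20.0 TPM in replicate 1. The arterial factor Sox17 was much lower, at 3.66 and 5.0 TPM, so that Sox18 was 5.34 times Sox17 in replicate 2 and 4.0 times in replicate 1. Ets1 had 19.0 TPM in replicate 2 and 14.9 TPM in replicate 1, a ratio of 0.51 (0.42 to 0.59). Erg, the ETS factor most specific to endothelium, had 10.1 and 9.78 TPM and a ratio of 0.15, with an interval that included 0. Prox1 had 17.5 and 17.9 TPM, and cardiomyocytes are known to express it as well. The 8 cardiomyocyte genes had a median ratio of -0.13 and summed to 30513 TPM in replicate 2 and 36288 TPM in replicate 1, and their part in the level of Prox1 was not tested.

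Meox2 and Tcf15, which act together on fatty acid uptake in mouse cardiac endothelium, were both higher in replicate 2. Meox2 had 5.19 TPM in replicate 2 and 3.43 TPM in replicate 1, from 360 and 239 counts, a ratio of 0.72 (0.49 to 0.97). Tcf15 had 9.59 TPM in replicate 2 and 7.61 TPM in replicate 1, a ratio of 0.46 (0.19 to 0.73). Meox2 lies on the plus strand at chr12:37108540-37179534. Of the 10 detected genes of capillary lipid uptake, 8 lay above 0 and 2 below, with a median of 0.08, and none was past 1.5-fold in either direction. Lpl, the lipoprotein lipase, led that list with 1341 TPM in replicate 2 and 1367 TPM in replicate 1.

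The partners of the 39 genes in their pathways were mostly present. All 10 genes of the VEGF axis were detected, led by the ligands Vegfb and Vegfa at 164 and 81.7 TPM in replicate 2 and 194 and 96.6 TPM in replicate 1. The co-receptor Nrp1 had 41.7 and 43.2 TPM. Of the 7 angiopoietin and Tie genes 6 were detected, and Angpt4 was not, at 0.09 and 0.14 TPM. All 15 genes of the Notch axis were detected, and Notch4, an endothelial Notch receptor, led them with 12.7 and 16.4 TPM. In the apelin axis Apln and Aplnr were detected, while Apela, the second ligand, had 0 counts in both libraries. In the BMP9 and endoglin axis 11 of 12 genes were detected. Gdf2, which encodes BMP9, was not, at 0.05 and 0.03 TPM, and Bmp10, the other endoglin ligand and an atrial gene, had 1.55 TPM in replicate 2 and 18.5 TPM in replicate 1.

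Markers of the vessel types had medians close to 0. The median ratio was 0.07 over 14 arterial markers, -0.11 over 8 venous markers, 0.09 over 13 capillary markers and 0.16 over 9 lymphatic gene identifiers, beside -0.02 over all 12189 genes. Without the 2 near-copy identifiers named Ccl21a, left out after the values were seen, the lymphatic median was 0.06 over 7 genes. The venous and inflammatory adhesion genes Ackr1, Selp and Sele were all under 1 TPM in both libraries. Of 7 genes of the endothelium of other organs, Gpr182 and Ehd3 were detected at 1.27 and 1.16 TPM in replicate 2 and 1.32 and 1.13 TPM in replicate 1. Of 27 endothelial transcription factors 24 passed the level filter, with a median of 0.13, and Elk3, an ETS factor, joined Meox2 past 1.5-fold higher at 0.61. Mural cell and fibroblast genes both had a median of -0.04. None of 7 lymphocyte genes and none of 5 cycling genes reached 1 TPM in both libraries.

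**Figure D3:**
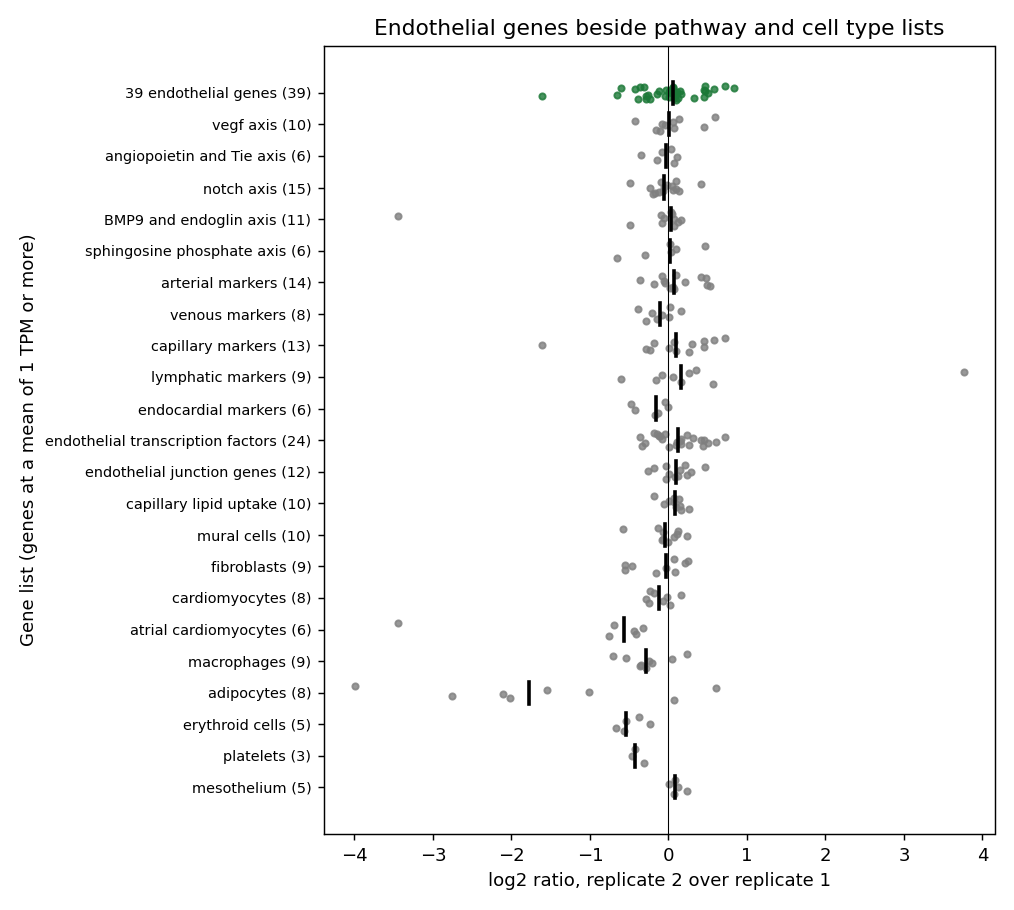
Log2 ratio of replicate 2 over replicate 1 for each gene that averaged 1 TPM or more, in the 39 endothelial genes (green, top row) and in pathway and cell type lists (grey); black bars are medians. The endothelial and pathway lists shown have medians from -0.16 for endocardial to 0.16 for lymphatic markers, while adipocyte, atrial and erythroid genes centre at -1.78, -0.57 and -0.54; the lymphatic point beyond 3 is 1 of 2 gene identifiers with the symbol Ccl21a, which are near copies; without both, the lymphatic median is 0.06 over 7 genes.

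Isoform shares were read from both transcript tables, which quantified the same reads in different ways. Of the 39 genes, 10 had 1 annotated transcript and 29 had several. The leading transcript held over 50% of the TPM of its gene in 33 genes and over 90% in 20, and it was of a protein-coding type in all 39. Of the 29 genes, 22 had the same leader in both tables. The other 7 were Pecam1, Eng, Egfl7, Robo4, Erg, Ly6c1 and Ly6a, and the identity of their main isoform depended on the table. In Egfl7, for example, Egfl7-202 led the first table with 29.0% ± 1.25 (SD, n = 2) and held 0.026% in the second, where Egfl7-212 led with 25.8% ± 4.69 (SD, n = 2). Both transcripts encode 278 codons, so the choice between them does not alter the annotated length of the protein.

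**Figure D4:**
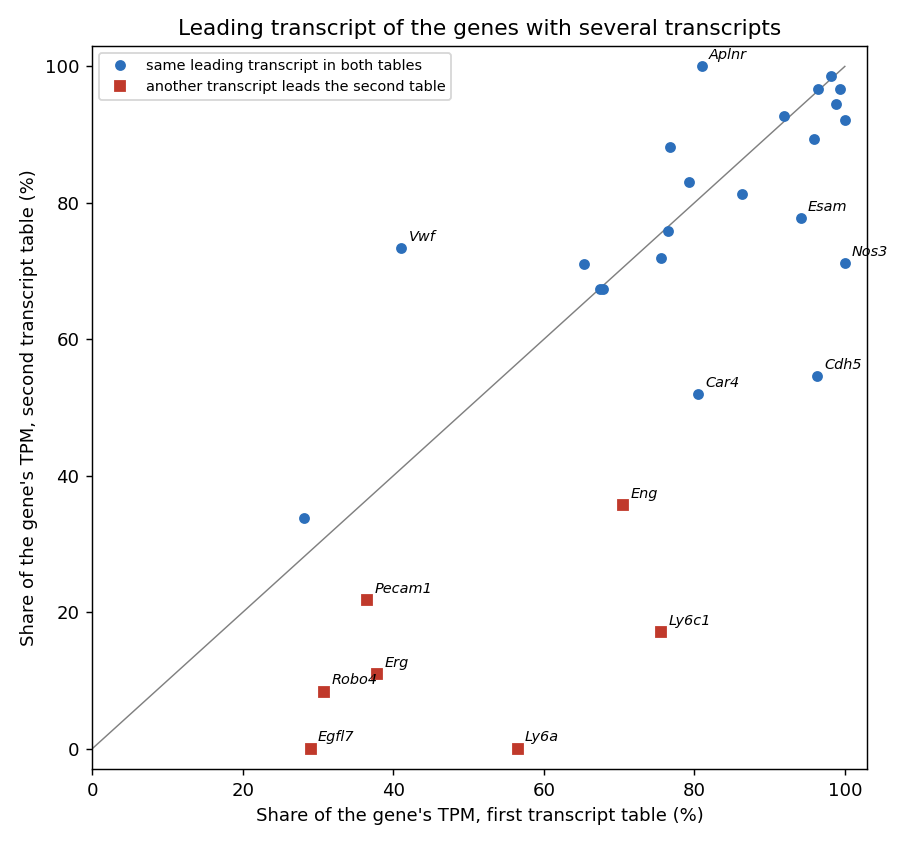
Share of the TPM of each gene held by the transcript that led the first table, in the first table (horizontal axis) and in the second (vertical axis), as means of both libraries in percent, for 29 genes with several transcripts. Blue circles are the 22 genes with the same leader in both tables, red squares are the 7 with another leader, and the diagonal marks equal shares; Ly6a and Egfl7 lie near 0 on the vertical axis, and Vwf lies above the diagonal.

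Flt1 had a full-length and a truncated form in both tables. Flt1-202, with 1333 codons, held 69.8% of Flt1 TPM in replicate 2 and 60.9% in replicate 1. Flt1-203, with 688 codons and of the kind known as the soluble VEGF trap, held 22.4% and 26.7%. In the second table Flt1-203 held 23.9% in replicate 2 and 29.4% in replicate 1, so both tables placed about the same share on it. All 3 Prox1 transcripts encode 737 codons, and Prox1-202 led with 78.6% in replicate 2 and 72.6% in replicate 1. Transcripts of types other than protein-coding held over 10% of the TPM in both tables for Egfl7, Vwf, Robo4, Lyve1 and Notch1. In Egfl7, Vwf and Robo4 these include transcripts annotated for nonsense-mediated decay, which do have annotated codons. For Vwf, types other than protein-coding held 56.6% ± 0.274 in the first table (SD, n = 2). That sum includes 16.9% for Vwf-210, a decay transcript with 384 codons. The full-length Vwf-203 held 41.1% ± 0.142 there but 73.3% ± 4.46 in the second.

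Short annotated transcripts carried much of the TPM of Aplnr, Vwf and Robo4 in the first table and of Cdh5 in the second. Vwf-209, of 456 bases, had 87.2 counts in replicate 2 and 86.4 in replicate 1, which made 32.3% and 24.8% of Vwf TPM in the first table. Robo4-206, of 530 bases, held 32.6% and 28.8% of Robo4 TPM there. In the second table Vwf as a whole had 15.6 TPM in replicate 2 and 22.3 TPM in replicate 1. Aplnr-202, of 313 bases, had 20.3 counts in replicate 2 and 1.96 in replicate 1, which made 31.4% and 6.59% of Aplnr TPM in the first table, and it had 0 counts in the second. The length behind the Aplnr value was 2636 bases in replicate 2 and 3478 bases in replicate 1. In the second table Aplnr had 7.61 TPM in replicate 2 and 4.61 TPM in replicate 1, so it was higher in replicate 2 there too. Cdh5-202, of 346 bases, had 4.45 counts in replicate 2 and 19.0 in replicate 1 in the first table, against 60 and 140 in the second. It held 35.6% of Cdh5 TPM in replicate 2 and 55.2% in replicate 1 in the second table. Cdh5 as a whole had 66.0 and 93.8 TPM there. Cdh5 and Car4 were past 1.5-fold higher in the second table than in the first in both libraries, as were 6.37% of the 11110 genes compared. None of the 39 was past 1.5-fold lower in both libraries, beside 0.981% of the genes compared.

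Exons of 7 of the 39 genes overlap those of another gene, Dll4, Egfl7, Eng, Nos3, Notch1, Prox1 and Sox17. The use of strand in the counting is not given in the sources used here, so reads shared with the opposite strand cannot be told apart. The largest such neighbour was Agpat2, which shares 64 exon bases with Egfl7 and had 870 counts in replicate 2 and 902 in replicate 1. Prox1os, antisense to Prox1, had 74 and 75 counts against 3663 for Prox1 in replicate 2. Ly6c1 has the near copy Ly6c2, which had 69.0 counts in replicate 2 and 65.7 in replicate 1. The deposited posterior SD of the Ly6c1 count was 5.80 in replicate 2 and 6.61 in replicate 1, on 1756 and 2362 counts, so the split between these copies moved Ly6c1 little within that table.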

How the data were processed

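Total RNA of 2 heart libraries of 1 group was analysed. Expected counts and TPM per gene and per transcript, and in a second transcript table estimated counts and TPM, were used as deposited. Per the deposited file list they were made on mm10 with GENCODE M21, the first tables from transcriptome alignments. Quantification tools and versions are not given in the sources used here. No allele-specific values were used. The 39 genes and all gene lists were chosen with earlier results of these data known. All 39 are named, and genes of other lists come from the 4 of highest mean TPM or from markers under 1 TPM, of which not all are printed. Bmp10, Gpihbp1, Timp4, Pdpn, Mmrn1 and Elk3 fall outside that rule and were chosen after their values were seen. Expected counts were rounded, and log2 ratios used TMM library sizes (edgeR 4.0.16, R 4.3.3) and a prior count of 2. Spike-ins were left out of library sizes. Alternatives were total-count, spike-in and DESeq2 1.42.0 scaling, a prior count of 0.5, the second table and other TPM filters (0.5 and 5).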

Additional observations from a re-analysis of the deposited data

How the results depend on the processing

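With 2 libraries, leaving 1 out gives the value of the other, so the following ranges only restate the single libraries. The median level was 14.2 to 15.4 TPM and the share of nuclear protein-coding TPM 0.284% to 0.286%. The median share of the leading transcript was 90.8% to 93.4%. Detection required both libraries, so all 39 genes were necessarily detected in each. Ratios between the libraries have no value with a library left out. The share of the 39 genes was 0.111% of the TPM of all annotated genes, 0.367% in expected counts and 0.254% in the second table, and their median level was 38.4 TPM after rescaling within nuclear protein-coding genes. The median share of the leading transcript was 84.8% in the second table, against 92.1% in the first. These medians include the 10 genes with 1 annotated transcript, whose share is 100% by definition. With spike-in scaling 4 of the 39 were past 1.5-fold higher, now with Ets1 at 0.60 and Car4 at 0.67, and Rgcc alone was lower, at -1.52, while S1pr1 and Lyve1 stood at -0.56 and -0.52. Of all genes, 384 were then past 1.5-fold higher and 290 lower, beside 265 and 351 with TMM. With total counts 15 of the 39 lay above 0 and 24 below, with a median of -0.02, and 192 of all genes were higher and 435 lower. Of 195 single-gene values under 5 alternatives, 170 stayed within the counting interval and 25 moved outside it, all under total-count or spike-in scaling. These scalings shift all ratios by nearly the same amount, so which genes moved depended on the width of their counting intervals. No ratio past 1.5-fold changed sign, which shifts of this size could not bring about. Signs changed in 16 of the 195 values, in 11 genes with TMM ratios of at most 0.08 in size, among them Ptprb under total counts, whose counting interval with TMM lay above 0. No paired analysis was possible because both libraries belong to 1 group.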
